A study of Mus musculus with 47 samples.

Results

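The extracellular matrix of the cortex is remodelled by secreted and membrane-bound metalloproteinases, and 10 genes of this system were followed here: 7 enzymes able to cut perineuronal nets (*Adamts1*, *Adamts4*, *Adamts5*, *Mmp2*, *Mmp9*, *Mmp14* and *Mmp15*) and 3 tissue inhibitors of metalloproteinases (*Timp2*, *Timp3* and *Timp4*). The genes were chosen by symbol and matched to the Ensembl identifiers of the expression tables, and all 10 were found among the 54281 genes of the TPM table (TPM is a level scaled by transcript length and by the library's total). Perineuronal nets are lattices of hyaluronan, lectican proteoglycans, link proteins and tenascin around certain neurons. The ADAMTS enzymes cleave lecticans such as aggrecan and brevican, and the matrix metalloproteinases cleave a wider range of matrix and surface proteins. The TIMPs bind the catalytic site of these enzymes, so that net turnover depends on the balance of enzyme and inhibitor, and microglia are among the cells thought to take part in it.

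RNA came from the microdissected cortex of 47 male C57BL/6J mice of about 3 months, with 1 library per mouse. The control group of 23 mice received Control Diet, and the other 24 mice received diet with 1200 ppm PLX5622, in both cases for 10 days. PLX5622 inhibits CSF1R, a receptor that microglia need for survival, and it acts on macrophages outside the brain as well. Mice of each diet were kept in a light-dark cycle and harvested every 4 h from ZT2 to ZT22, where Zeitgeber time (ZT) 0 is light onset and ZT12 is dark onset, with 4 mice per group and 3 in the control group at ZT14. The comparisons ask whether the members differ between diets, whether they change over the day, and whether the diet alters that change. The libraries held between 16597987 and 27626161 counts, and the median was lower in control mice (18314954) than in PLX5622 mice (21476967.5).

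The labels held for the tissue and for the treatment. Neuronal, astrocyte and oligodendrocyte markers were abundant, with *Snap25* at 1585 TPM, *Aldoc* at 1080 TPM and *Mbp* at 3806 TPM on average. The 8 microglial markers together fell from 376.2 ± 48.2 TPM (SD, n = 23) in control mice to 44.5 ± 17.4 TPM (SD, n = 24) in PLX5622 mice, and all 8 passed the threshold for a lower level. None of the 8 was at 0 throughout. The 6 markers of border macrophages together went from 10.6 to 1.38 TPM, and no call is given for them, since only 2 passed the filter, through their level in control mice. In bulk tissue, fewer cells of a type and less RNA per cell cannot be told apart.

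The inhibitors stood above the enzymes in level. *Timp2* averaged 99.6 TPM over the 47 libraries, *Timp3* 46.6 TPM and *Timp4* 25.4 TPM. Among the enzymes *Adamts4* averaged 9.56 TPM, *Mmp14* 9.13 TPM, *Mmp15* 6.21 TPM and *Adamts1* 3.28 TPM. The least abundant were *Mmp2* with 1.16 TPM, *Mmp9* with 0.773 TPM and *Adamts5* with 0.390 TPM. *Timp2* was above *Timp3*, *Timp3* above *Timp4*, and *Timp4* above *Adamts4* in 47 of 47 libraries each, so the order of the inhibitors and their place above the enzymes held within every mouse. *Adamts4* and *Mmp14* did not separate, with *Adamts4* the higher in 29 of 47 libraries. The ranges of *Mmp2* and *Mmp9*, and of *Mmp9* and *Adamts5*, overlapped as well. Summed TPM of the 3 TIMPs was 5.53 ± 0.709 times (SD, n = 23) that of the 7 enzymes in control mice and 5.83 ± 0.670 times (SD, n = 24) in PLX5622 mice. Of the 10 members, 8 passed the filter of a mean of at least 1 TPM, and *Adamts5* and *Mmp9* did not. Counts behind these low genes were small, between 34 and 102 reads per library for *Adamts5*, 12 and 48 for *Mmp9* and 30 and 95 for *Mmp2*.

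No member differed between diets past the threshold. In the limma fit of log2(TPM + 1) on diet and the cosine and sine of time, 0 of the 8 members tested passed an adjusted p of 0.05, where 3.45% of all 14580 genes did (2.58% lower and 0.871% higher in PLX5622 mice). No member had an unadjusted p under 0.05 either, against 2367 of all genes. On the counts of all 10 members edgeR and DESeq2 called 0, where they called 1243 of 18274 and 1363 of 28621 genes. The median log2 fold change of the 8 members was -0.03, beside 0.03 over all genes tested. A p that misses the threshold does not show equal levels, so the 95% confidence intervals are given with each member below.

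**Figure D1:**
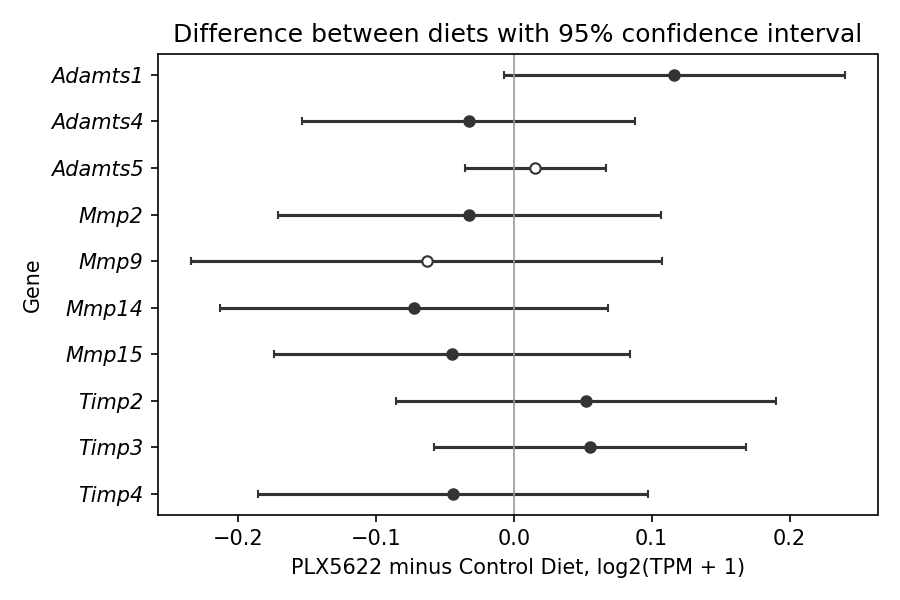
Difference between PLX5622 and control mice in log2(TPM + 1) for each of the 10 genes (horizontal axis), with points for the estimate and bars for the 95% confidence interval; open points mark *Adamts5* and *Mmp9*, which were below 1 TPM. Every interval includes 0, and the estimates run from -0.07 for *Mmp14* to 0.12 for *Adamts1*.

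*Adamts1* encodes a secreted proteinase that cleaves aggrecan and versican, and it lies on chr16:85793827-85803113 (GRCm38, minus strand), next to *Adamts5*. Its level in the control libraries had a lowest value of 2.08, a median of 2.90 and a highest of 4.61 TPM, and in PLX5622 libraries these were 2.13, 3.40 and 5.07 TPM. The diets overlapped over nearly the whole range, with 2 of the 24 PLX5622 libraries above every control library. Its log2 fold change was 0.12 (SE 0.061, 95% CI -0.01 to 0.24, limma adjusted p = 0.342), the estimate farthest from 0 among the members on this scale. On the counts it was 0.097 in edgeR, and *Mmp2* (-0.118) and *Mmp14* (-0.105) lay farther from 0. The mean in PLX5622 mice was the higher at 5 of the 6 Zeitgeber times.

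*Adamts4* encodes an aggrecanase that also cuts brevican. It ranged from 7.36 to 13.1 TPM around a median of 9.96 in control mice, and from 6.59 to 13.3 TPM around 9.27 in PLX5622 mice. These ranges largely coincided, and its log2 fold change was -0.03 (95% CI -0.15 to 0.09), where edgeR on the counts gave -0.08. *Adamts5*, which encodes the other main aggrecanase, had medians of 0.390 TPM in control and 0.392 TPM in PLX5622 mice. Without the filter its estimate was 0.02 (95% CI -0.04 to 0.07), and on the counts edgeR gave it as -0.02, so its direction was not fixed.

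*Mmp2* and *Mmp9* encode the gelatinases, which are secreted as inactive precursors. *Mmp2* had medians of 1.10 and 1.15 TPM in control and PLX5622 mice, and a log2 fold change of -0.03 (95% CI -0.17 to 0.11), beside -0.118 in edgeR. *Mmp9* had medians of 0.785 and 0.605 TPM, and without the filter its estimate was -0.06 (95% CI -0.23 to 0.11), where edgeR on the counts gave 0.01. Libraries of a group differed most for this gene, with a coefficient of variation within groups of 58.8%, against 33.1% for *Mmp2* and 12.2% for *Timp3*. *Mmp15*, which encodes a membrane-anchored proteinase, had medians of 6.32 and 6.14 TPM and a log2 fold change of -0.04 (95% CI -0.17 to 0.08), beside -0.08 in edgeR.

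Among the inhibitors, *Timp2*, whose product both blocks MMP2 and helps MMP14 to activate it, had medians of 95.7 TPM in control and 97.6 TPM in PLX5622 mice. The estimate for *Timp2* was 0.05 (95% CI -0.09 to 0.19). *Timp3*, the inhibitor that is held in the matrix and also blocks ADAMTS4 and ADAMTS5, had medians of 43.7 and 44.9 TPM and an estimate of 0.06 (95% CI -0.06 to 0.17). *Timp4* had medians of 25.1 and 24.7 TPM and an estimate of -0.04 (95% CI -0.19 to 0.10). On the counts edgeR gave smaller estimates for *Timp2* (0.030) and *Timp3* (0.027). At single Zeitgeber times the diets overlapped in all 60 comparisons of 10 members at 6 times, which does not show equal levels. With 3 or 4 libraries per group, ranges can overlap despite a difference, and the share over all genes is not given. Differences in mean log2(TPM + 1) at these times lay between -0.31, for *Mmp14* at ZT10, and 0.23, for *Adamts1* at ZT22.

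Markers of other cells did move with diet. The astrocyte gene *Gfap* was higher in PLX5622 mice by 0.56 (SE 0.087, adjusted p = 5.493e-06), the only 1 of 8 astrocyte markers called. Choroid plexus markers summed to 541.1 ± 303 TPM (SD, n = 23) in control mice and 809.3 ± 256 TPM (SD, n = 24) in PLX5622 mice, with *Ttr* the most abundant and 3 of 8 called higher. Their part in the members' estimates was not tested.

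Time of day moved 1 of the 8 members tested past the threshold, *Mmp14*, where 5.26% of all genes passed (767 of 14580). At an unadjusted p under 0.05 there were 2 members, *Mmp14* and *Timp3*, against 2882 of all 14580 genes. With 8 members tested, a single call does not set the members apart from other genes, and the median amplitude over the 8 members, 0.09 in log2(TPM + 1), was close to the 0.07 over all genes tested.

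*Mmp14* encodes a membrane-anchored proteinase that cuts collagens at the cell surface and activates the MMP2 precursor, and it lies on chr14:54431612-54445364 (plus strand). At ZT2 the control libraries were at 9.63, 9.73, 13.045 and 11.5 TPM and the PLX5622 libraries at 11.0, 14.9, 14.3 and 7.77 TPM. At ZT6 they were at 10.5, 10.2, 13.994 and 9.83 TPM in control and at 12.7, 7.14, 9.64 and 9.89 TPM in PLX5622 mice. Levels were thus high early in the light phase in both diets, with 14 of these 16 libraries above the median of all 47. At ZT10 the values were 8.16, 11.3, 5.70 and 8.73 TPM in control and 7.63, 6.05, 6.45 and 5.81 TPM in PLX5622 mice. At ZT14 they were 7.87, 6.24 and 7.60 TPM in control and 7.89, 7.65, 10.2 and 8.35 TPM in PLX5622 mice. At ZT18 they were 8.67, 7.83, 6.27 and 8.42 TPM in control and 6.40, 7.18, 7.53 and 8.61 TPM in PLX5622 mice. From late light to the middle of the dark phase most libraries were low, and at ZT18 none of 8 was above the median. At ZT22 the control libraries were back at 12.3, 9.65, 9.89 and 9.11 TPM and the PLX5622 libraries at 8.49, 8.71, 8.82 and 9.57 TPM.

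Averaged over both diets, *Mmp14* was highest at ZT2 with 11.5 ± 2.47 TPM (SD, n = 8) and lowest at ZT10 with 7.48 ± 1.93 TPM (SD, n = 8), a ratio of 1.53. These pooled groups overlapped, since 3 libraries at ZT10 were at or above the lowest at ZT2. Within control mice the highest group, ZT6, and the lowest, ZT14, did not overlap, and neither did ZT2 and ZT10 within PLX5622 mice. These groups were picked as the highest and lowest from the same values, which favours a gap, and the share over all genes is not given. The fitted curve had an amplitude of 0.28 (SE 0.050) in log2(TPM + 1), a peak at ZT 2.25 (SE 0.660 h) and an adjusted p of 8.081e-04 in limma, and it spanned 1.48-fold from trough to peak. Of the 767 genes called for time, 105 had a larger amplitude, and the median was 0.18. Fitted in each diet alone, the amplitude was 0.31 (SE 0.064) with a peak at ZT 2.68 in control mice and 0.27 (SE 0.076) with a peak at ZT 1.74 in PLX5622 mice. Neither fit alone passed the threshold (adjusted p = 0.0800 and 0.181), where 0.247% and 0.926% of genes were called. Over the 10 alternatives that fit a curve, the adjusted p of *Mmp14* lay between 6.92e-09 and 0.181. The test of a difference in rhythm gave *Mmp14* an unadjusted p of 0.725. Its log2 fold change between diets was -0.07 (95% CI -0.21 to 0.07).

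**Figure D2:**
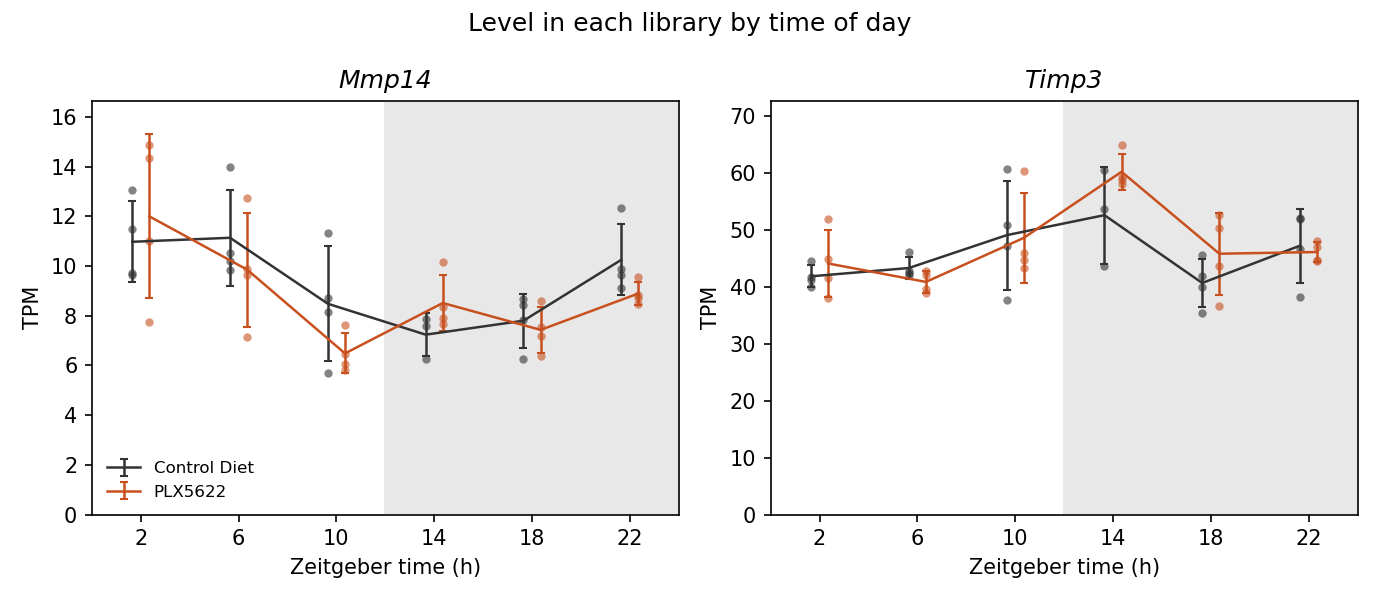
TPM of *Mmp14* and *Timp3* in each of the 47 libraries (points) against Zeitgeber time in hours, with lines for group means and bars for the SD of 3 or 4 mice; grey shading marks the dark phase, and the diets are drawn slightly apart. *Mmp14* is highest at ZT2 and ZT6, while *Timp3* is highest at ZT14, with 4 PLX5622 libraries between 58.0 and 65.0 TPM.

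Fitted over both diets, *Timp3* peaked at nearly the opposite time to *Mmp14*, without passing the threshold. At ZT2 the control libraries were at 41.7, 44.6, 41.3 and 39.9 TPM and the PLX5622 libraries at 44.9, 52.0, 41.5 and 38.2 TPM. At ZT6 they were at 42.7, 42.0, 46.2 and 42.4 TPM in control and at 42.9, 39.7, 42.2 and 38.9 TPM in PLX5622 mice. At these early times only 3 of 16 libraries were above the median of all 47. At ZT10 the values were 50.9, 60.8, 37.6 and 47.1 TPM in control and 60.4, 46.0, 43.3 and 44.8 TPM in PLX5622 mice. At ZT14 they were 60.6, 43.7 and 53.6 TPM in control and 58.7, 58.0, 65.0 and 59.3 TPM in PLX5622 mice. At this time 6 of 7 libraries were above the median, and the 4 PLX5622 libraries did not overlap those at ZT6. These were the highest and lowest groups of that diet, a choice that favours a gap. At ZT18 the values were 40.0, 45.5, 35.4 and 41.9 TPM in control and 52.7, 36.7, 43.6 and 50.3 TPM in PLX5622 mice. At ZT22 they were 46.8, 52.1, 52.0 and 38.3 TPM in control and 48.1, 47.1, 44.6 and 44.8 TPM in PLX5622 mice. At ZT18 only 3 of 8 libraries were above the median, with a pooled mean of 43.3 TPM close to the 43.0 TPM at ZT2, and control mice had their lowest group mean of the day, 40.7 TPM. At ZT22 5 of 8 libraries were above the median.

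The fitted curve of *Timp3* had an amplitude of 0.14 (SE 0.040), a peak at ZT 13.8 (SE 1.09 h) and an adjusted p of 0.0754. In control mice alone its amplitude was 0.095 (SE 0.059, peak at ZT 12.35, adjusted p = 0.721). In PLX5622 mice alone it was 0.19 (SE 0.054, peak at ZT 14.5, adjusted p = 0.192). The limma test of the difference gave an unadjusted p of 0.344. On the counts the amplitude was 0.10 in both edgeR (adjusted p = 0.133) and DESeq2 (0.126). With Zeitgeber time as a factor, which does not assume a cosine, the adjusted p was 0.00504. Over the 10 alternatives that fit a curve it lay between 0.00370 and 0.721. The call also depended on single libraries. It passed without control ZT10 replicate 3 (adjusted p = 0.0485), control ZT18 replicate 3 (0.0396), PLX5622 ZT2 replicate 2 (0.0490) or PLX5622 ZT18 replicate 2 (0.0386). As a description, the ratio of *Timp3* to *Mmp14* TPM was 3.87 ± 0.717 at ZT2 (SD, n = 8) and 7.18 ± 0.442 at ZT14 (SD, n = 7). These ranges, 2.90 to 4.91 and 6.40 to 7.70, did not overlap. The pair and the times were picked from these same values, so the gap adds no support to opposite phases. *Timp3* lies on chr10:86300372-86349506 inside *Syn3*, on the opposite strand. The genes share 1733 exon bases, and *Syn3* averaged 4.76 TPM, so reads over these bases cannot be assigned with certainty where strand was not used.

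*Timp4* encodes an inhibitor expressed in brain and heart. In control mice its group means ran from 31.0 ± 7.19 TPM at ZT22 (SD, n = 4) to 20.5 ± 1.95 TPM at ZT14 (SD, n = 3). These groups did not overlap, but they were picked as the highest and lowest, which favours a gap. In PLX5622 mice they ran only from 26.2 ± 6.50 TPM at ZT2 to 24.1 ± 4.57 TPM at ZT18 (SD, n = 4 each), well within the spread between mice. Its curve over both diets had an amplitude of 0.13 (SE 0.050), a peak at ZT 0.758 and an adjusted p of 0.254. Although the fitted amplitude was 0.22 (SE 0.069) in control and 0.05 (SE 0.069) in PLX5622 mice, the test of the difference gave an unadjusted p of 0.197. DESeq2 on the counts called it for time (adjusted p = 0.0430), as did the fit with 3 residual components (0.0229), within a range up to 0.910. Those components come from residuals around the group means, so the amplitude stayed at 0.13 while the spread it was set against changed. It lies in *Syn2* on the opposite strand, with 90 shared exon bases, and *Syn2* averaged 167.9 TPM.

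**Figure D3:**
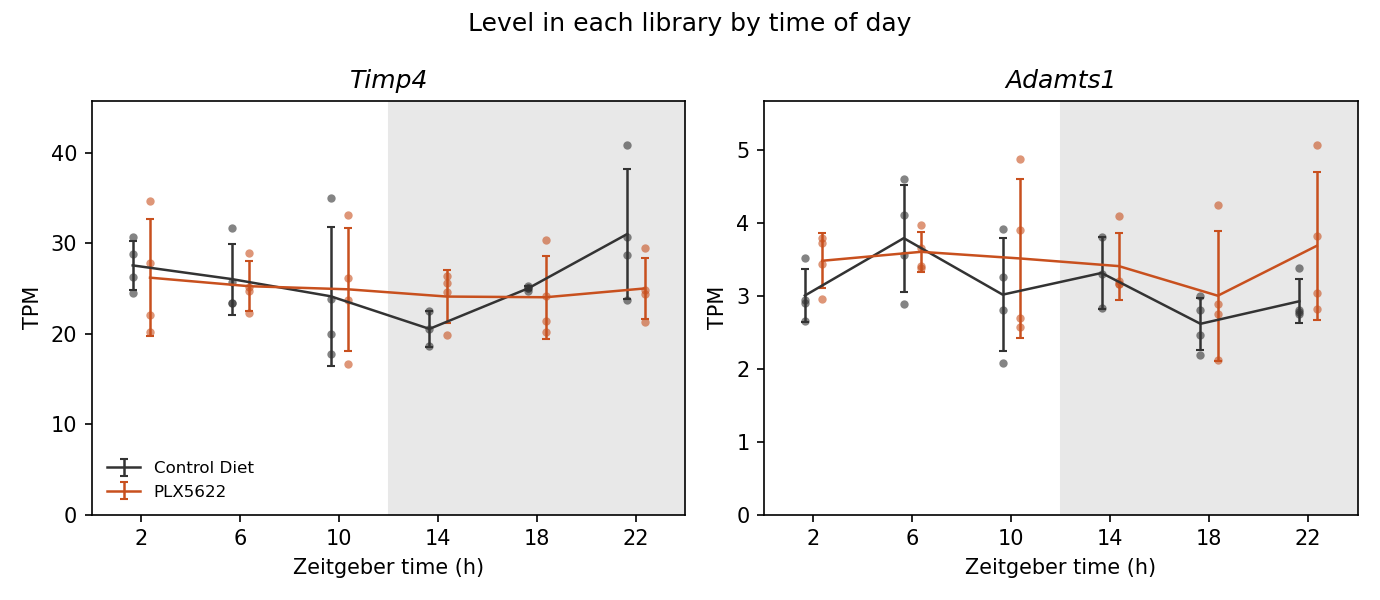
TPM of *Timp4* and *Adamts1* in each of the 47 libraries (points) against Zeitgeber time in hours, with lines for group means and bars for the SD of 3 or 4 mice; grey shading marks the dark phase. In control mice *Timp4* is lowest at ZT14 and highest at ZT22, and the libraries of both genes overlap between diets at every time.

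None of the other members was called for time, either with the filter or, for the 2 below it, without. *Adamts1* peaked at ZT 6.01 in the fit with an amplitude of 0.10 and an adjusted p of 0.339, and its pooled means lay between 3.70 TPM at ZT6 and 2.81 TPM at ZT18. *Mmp15* had a fitted peak at ZT 20.5 with an amplitude of 0.08 and an adjusted p of 0.472. Within PLX5622 mice its highest group, ZT14 (7.27 TPM), and its lowest, ZT6 (5.21 TPM), did not overlap, a gap that picking the extremes favours. *Timp2* had its highest pooled mean, 112.3 TPM, at ZT14 and its lowest, 94.3 TPM, at ZT18, with an adjusted p of 0.698. *Adamts4* and *Mmp2* had adjusted p-values of 0.777 and 0.864. *Mmp9* had the widest span of pooled means of all members, 1.81-fold between 0.996 ± 0.728 TPM at ZT10 and 0.550 ± 0.242 TPM at ZT18 (SD, n = 8 each), and 6 of the 8 libraries at ZT18 were at or above the lowest at ZT10. The highest library at ZT10, control replicate 3, was at 2.64 TPM from 45 reads, where replicate 2 had 0.980 TPM from 48 reads. Without the filter its amplitude was 0.15 (SE 0.059), with a peak at ZT 8.70, an unadjusted p of 0.0443 and an adjusted p of 0.409. On the counts the amplitude of *Mmp9* was larger, 0.244 in edgeR (peak at ZT 6.665, adjusted p = 0.133) and 0.243 in DESeq2 (adjusted p = 0.110). *Adamts5* gave an adjusted p of 0.995.

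The diet did not alter the daily course of any member past the threshold. The limma test of both interactions of diet with time called 0 of the 8 members and 0.0% of all 14580 genes, and 669 genes but no member had an unadjusted p under 0.05. Unadjusted p-values of the members lay between 0.189 (*Adamts4*) and 0.809 (*Mmp2*). On the counts, edgeR and DESeq2 also called 0 genes.

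Levels of the members were then set against marker lists within groups, so that diet and time did not enter. Each value was taken as its deviation from its group's mean, and Pearson's r and Spearman's rho were computed over 47 libraries for 130 pairs of a member and a list, with two-sided permutation tests within groups and Benjamini-Hochberg adjustment over all pairs. In 38 pairs both adjusted p-values were under 0.05. The share of such pairs over all genes is not given, so this count does not set the members apart from other genes. These libraries share the dissection, so that a member can follow a list through the tissue taken, which was not tested. The permutations treated the libraries of a group as interchangeable and did not take the number in their label into account. The library numbered 4 was the highest for the immediate early genes in 10 of 11 groups, and *Timp2* also differed by number. The p-values do not cover such a shared factor.

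*Adamts4* followed the oligodendrocyte markers with r = 0.855 (permutation p = 1.0e-05, the smallest the permutations can give, adjusted p = 1.86e-04) and rho = 0.822 (p = 1.0e-05, adjusted p = 2.60e-04), and r = 0.810 without the 2 libraries farthest from the median of the markers. It passed for the astrocyte list as well (r = 0.544, rho = 0.540). *Timp2* followed the neuronal markers with r = 0.844 (permutation p = 1.0e-05, adjusted p = 1.86e-04) and rho = 0.857 (p = 1.0e-05, adjusted p = 2.60e-04), and r = 0.821 without 2 libraries. *Timp3* followed the astrocyte markers with r = 0.771 (permutation p = 1.0e-05, adjusted p = 1.86e-04) and rho = 0.733 (p = 1.0e-05, adjusted p = 2.60e-04), and r = 0.698 without 2 libraries. Both *Timp2* and *Timp3* also passed for the lists of oligodendrocyte precursors (r = 0.797 and 0.566), fibroblasts (0.667 and 0.668), mural cells (0.520 and 0.703) and endothelial cells (0.452 and 0.680). *Timp2* passed further for the clock list (0.701) and the immediate early genes (0.4998), and *Timp3* for the oligodendrocyte list (0.564), and differences between correlations were not tested. Over both diets *Timp3* averaged 57.0 TPM at ZT14 and 42.1 TPM at ZT6. At these times the summed mural markers averaged 152.7 and 136.7 TPM, endothelial markers 258.3 and 218.4 TPM, and astrocyte markers 2428 and 2294 TPM. The oligodendrocyte markers went the other way, with 5314 and 5780 TPM. The part of these markers in the daily course of *Timp3* was not tested. *Timp4* also followed the astrocyte markers, with r = 0.733 (permutation p = 2.0e-05, adjusted p = 2.60e-04), rho = 0.697 (p = 4.0e-05, adjusted p = 5.20e-04) and r = 0.687 without 2 libraries, and it passed for the oligodendrocyte list too (r = 0.524, rho = 0.481). *Mmp15* passed for 7 of 13 lists with no list standing apart: r was 0.654 with endothelial, 0.650 with mural and 0.633 with fibroblast markers, and its highest value, with the markers of oligodendrocyte precursors, was r = 0.678 (permutation p = 1.0e-05, adjusted p = 1.86e-04), rho = 0.688 (p = 2.0e-05, adjusted p = 3.25e-04) and r = 0.659 without 2 libraries. *Adamts1* passed for 4 lists that were likewise close, with r = 0.585 for endothelial, 0.583 for mural and 0.527 for neuronal markers, and for the fibroblast markers r = 0.618 (permutation p = 1.1e-04, adjusted p = 9.53e-04), rho = 0.533 (p = 0.00104, adjusted p = 0.00676) and r = 0.548 without 2 libraries.

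For *Mmp14* the astrocyte list gave the largest r, 0.541 (permutation p = 0.00417, adjusted p = 0.0169), but its rho of 0.385 did not pass (p = 0.0315, adjusted p = 0.0932), and r was 0.402 without 2 libraries. Among the 4 lists that passed in both measures the fibroblast list was the highest, with r = 0.501 (permutation p = 0.00108, adjusted p = 0.00610), rho = 0.532 (p = 6.8e-04, adjusted p = 0.00491) and r = 0.471 without 2 libraries. The summed fibroblast markers averaged 38.8 TPM at ZT2, 36.9 at ZT6, 36.6 at ZT10, 39.0 at ZT14, 32.6 at ZT18 and 39.4 TPM at ZT22, with SDs from 3.87 to 9.12 TPM (n = 8 each, 7 at ZT14). At the same times *Mmp14* averaged 11.5, 10.5, 7.48, 7.97, 7.62 and 9.57 TPM, and the part of these markers in its daily course was not tested. Of the 6 fibroblast markers 1, *Slc6a13*, was called for time, with a peak at ZT 0.652, and *Dcn* was the most abundant with 16.7 TPM. Of the other lists that *Mmp14* passed for in both measures, 2 of 6 endothelial markers were called for time, *Cldn5* (amplitude 0.38, peak at ZT 0.653, adjusted p = 2.875e-08, pooled means of 85.0 TPM at ZT2 and 47.3 TPM at ZT10) and *Ly6c1* (peak at ZT 15.99), as was 1 of 5 markers of oligodendrocyte precursors, *Gpr17* (peak at ZT 19.9), and 0 of 6 mural markers. The summed endothelial markers averaged 244.3 TPM at ZT2, 215.9 at ZT10 and 258.3 TPM at ZT14, and the part of these markers was not tested either. *Mmp2* was also closest to the fibroblast list, with r = 0.454 (permutation p = 0.00247, adjusted p = 0.0115), rho = 0.514 (p = 0.00129, adjusted p = 0.00799) and r = 0.418 without 2 libraries. *Adamts5* had its largest r, 0.473, with the border macrophage list, without passing (permutation p = 0.0338, adjusted p = 0.0936; rho = 0.255, p = 0.160, adjusted p = 0.310; r = 0.411 without 2 libraries). Among the 3 lists that it passed in both measures the neuronal list was the highest, with r = 0.424 (permutation p = 0.00510, adjusted p = 0.0184), rho = 0.444 (p = 0.00638, adjusted p = 0.0252) and r = 0.464 without 2 libraries. *Mmp9* gave no pair past the threshold. For the microglial list no member passed in both measures, and the closest was *Timp3* with r = 0.263 (permutation p = 0.137, adjusted p = 0.266), rho = 0.393 (p = 0.0170, adjusted p = 0.0550) and r = 0.305 without 2 libraries.

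Genes alike to each member were found by Pearson's r over the same 47 libraries within groups, among those averaging 5 TPM or more, as a description. *Timp2* was closest to *Chl1* (r = 0.952), *Pnmal2* (0.951) and *Dpp6* (0.945). For *Timp3* these were *Itih5* (0.918), *Scd2* (0.895) and the astrocyte water channel gene *Aqp4* (0.893). *Timp4* was closest to *Ndrg2* (0.846), *Serpine2* (0.807), which encodes an inhibitor of serine proteinases, and *Rida* (0.807). For *Adamts4* they were *Kif13b* (0.911), *Fnbp1* (0.891) and *Il33* (0.856). Among the genes near *Mmp15* were *Crkl* (0.793) and *Dag1* (0.785), and *Mmp14* had *Jam2* (0.729), *Lcat* (0.689) and *Csdc2* (0.679). *Adamts1* had *Fat1* (0.743), *Nf1* (0.715) and *Cpeb4* (0.708), while *Mmp2*, a low gene, reached only 0.609 with *Uqcc1*, then 0.597 with *Slc6a9* and 0.584 with *Nkain1*.

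In 6 lists of other genes of the pathway, 1 of 32 genes tested was called for diet, a share close to the 3.45% of all genes. Of 8 other ADAMTS genes tested (16 listed) 0 were called for diet, with a median log2 fold change of 0.05, and *Adamts10* was the most abundant at 4.97 TPM. Of 4 other MMP genes tested (19 listed) 0 were called, with a median of -0.01, and *Mmp17* was the most abundant at 34.6 TPM. Other inhibitors gave 0 of 5, with a median of 0.06 and *Spock2* at 204.4 TPM, and sheddases that TIMPs block gave 0 of 4, with a median of 0.01 and *Adam15* at 37.6 TPM. The net components that these enzymes cut gave 0 of 6, with a median of 0.06 and *Bcan*, which encodes brevican, at 141.6 TPM. In the plasminogen system and furin 1 of 5 genes was called. This gene, *Plau*, encodes urokinase, a proteinase that activates plasminogen and through it several MMP precursors. It went from 1.49 ± 0.381 TPM (SD, n = 23) in control mice to 1.09 ± 0.262 TPM (SD, n = 24) with PLX5622, and its log2 fold change was -0.25 (SE 0.059, adjusted p = 0.00680 in limma). *Serpine2* was the most abundant gene of that list at 157.0 TPM. None of the 32 genes tested in these lists was called for time or for a difference in rhythm.

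Promoter windows of RefSeq on GRCm38.p6, from 250 bases before to 50 after the start, were found for 6 members (*Adamts1*, *Mmp14*, *Mmp15*, *Timp2*, *Timp3* and *Timp4*). The letters of the E-box CACGTG were in 0 of these 6 windows and in 7.15% of all 32851, searched on both strands. TGACGTCA, the letters bound by CREB, were in 0 and in 1.79%, and the AP-1 letters TGANTCA in 0 and in 7.81%. The GC box GGGCGG, searched only after the data were seen, was in 5 of 6 and in 35.7% of all windows. The 250 bases before the start of *Mmp14*, chr14:54431348-54431597 on the plus strand, are shown because it was the member called for time, with the 2 GC boxes in capitals:
Mmp14: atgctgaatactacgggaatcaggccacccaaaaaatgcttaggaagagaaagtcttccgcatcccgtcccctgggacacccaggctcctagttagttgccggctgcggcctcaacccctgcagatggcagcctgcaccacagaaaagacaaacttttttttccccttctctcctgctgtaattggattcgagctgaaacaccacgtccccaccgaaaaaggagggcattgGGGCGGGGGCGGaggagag
GENCODE M21 places no exon in this stretch. A match is a description of the letters, and their absence says nothing of the factors that bind elsewhere.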

How the data were processed

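Reads were aligned by the authors to GRCm38.p6 with STAR, and they computed TPM with Salmon and a Gencode annotation; the deposited TPM values sum to 1000000 in each of 47 libraries. The second deposited table is named for FPKM but holds whole-number counts per gene, used here as counts. The submitters' processing notes name STAR, featureCounts, edgeR, limma and mm10; which of them made the counts, and whether strand was used, is not given in the sources used here. Each library is a separate mouse, and no pair of libraries in a group agreed within sampling noise (smallest chi-square per degree of freedom 4.30 over 69 pairs).

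Here, log2(TPM + 1) of the 14580 genes that averaged 1 TPM or more was fitted with limma 3.58.1 (R 4.3.3) on diet and the cosine and sine of time at a 24-h period, over all libraries. Time was tested with both terms and a difference in rhythm with their interactions with diet, with Benjamini-Hochberg adjustment over all genes and a threshold of 0.05. *Adamts5* and *Mmp9* were taken from the same fit without the filter. Fold changes on this scale understate changes of low genes. Correlations used 100000 permutations within groups. Gene positions and overlaps came from GENCODE M21. Alternatives were other filters, a pseudocount of 0.1, median-of-ratios scaling, edgeR 4.0.16 and DESeq2 1.42.0 on the counts, 3 residual principal components, Zeitgeber time as a factor, the replicate number as a block, each diet alone, JTK_CYCLE (written for this purpose) and each library left out. Ranges of the adjusted p for time leave out JTK_CYCLE and time as a factor, which give no amplitude. The fitting code and JTK_CYCLE were tested on simulated data. Python 3.11.15, numpy 2.4.6, pandas 2.3.3, scipy 1.17.1 and matplotlib 3.10.9 were used.

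The members and lists were chosen with earlier results of these data known. Named genes were the members, per pathway list those past the threshold (at most 6, smallest p first) and the most abundant, and the 3 genes with the highest r to each member above 1 TPM. Cell type markers were named where a member's result is set beside them. Results for 3 other genes are not reported here, so *Mmp15* is given with 2 genes.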

Additional observations from a re-analysis of the deposited data

Results flagged for a closer look

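In 8 of 110 groups of 4 libraries examined for the 10 members, a single library lay far from the other 3; chance flags about 1 in 20 groups, or 5.50 here. *Adamts1* was at 3.38 TPM in control ZT22 replicate 3 (others 2.75 to 2.80 TPM) and at 4.10 TPM in PLX5622 ZT14 replicate 4 (others 3.17 to 3.20 TPM). *Adamts4* was at 13.3 TPM in PLX5622 ZT10 replicate 1 (others 8.15 to 8.75 TPM), and in the same library *Timp3* was at 60.4 TPM (others 43.3 to 46.0 TPM). *Adamts5* was at 0.295 TPM in control ZT18 replicate 4 (others 0.389 to 0.396 TPM). In these 5 cases the count scaled to the library's total (CPM) was also outside the range of the other 3 libraries, such as 42.9 CPM for *Adamts4* (others 27.7 to 32.1).

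The other 3 cases differed more in TPM than in counts, although for *Mmp14*, and for *Mmp9* at ZT14, the CPM was slightly above the other libraries too. *Mmp14* was at 13.994 TPM in control ZT6 replicate 3 (others 9.83 to 10.5 TPM), with 21.35 CPM beside 19.7 to 20.97. *Mmp9* was at 1.59 TPM in PLX5622 ZT6 replicate 1 (others 0.658 to 0.689 TPM), but its 38 reads gave 1.62 CPM, below the others at 1.72 to 1.90. It was at 2.17 TPM in PLX5622 ZT14 replicate 4 (others 0.489 to 0.744 TPM), with 44 reads or 2.02 CPM beside 1.19 to 1.93. The cause was not tested.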

How the results depend on the processing

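No member was called for diet under any of the 9 alternatives or the 47 fits without 1 library, and *Mmp14* was called for time in each of those 47 fits. Leaving out 1 library, 429 to 634 genes were called for diet and 619 to 876 for time, 1 to 2 members were called for time, and 0 genes and 0 members for a difference in rhythm. Genes called for diet moved from 503 to 298 with a mean of at least 5 TPM, where fewer genes were tested, 1243 with edgeR, 1363 with DESeq2 and 1679 with 3 residual components. In the last, 38.3% were lower in PLX5622 mice, against 74.8%. The count fits held more genes than the 14580 of the main fit, 18274 in edgeR and 28621 in DESeq2, for diet and for time. Genes called for time moved from 767 to 1336 with median-of-ratios scaling, 1609 with time as a factor, 2066 with edgeR, 2406 with DESeq2 and 2696 with 3 components, and members from 1 to 2 with time as a factor (with *Timp3*), 2 with DESeq2 (with *Timp4*) and 3 with 3 components, which left the members' estimates as they were and which also called 3 genes for a difference in rhythm. With fewer samples, the counts for time were 36 genes in control mice alone and 135 in PLX5622 mice alone; with JTK_CYCLE, which changes both the samples and the test, they were 11 and 89, with 0 members in each. In PLX5622 mice alone the fitted curve of *Adamts4* had an amplitude of 0.037 peaking at ZT 11.2 (SE 6.66 h) instead of ZT 1.95, so its direction is not defined, and in control mice alone the amplitude was 0.124 (SE 0.053), beside 0.043 over both; none was called. Otherwise the cause was not tested. The labels do not say that a replicate number pairs mice, and this was not settled by the data: same-numbered libraries of both diets at a time correlated with a median r of 0.0722 (-0.0928 to 0.198, over 0.1 in 7 of 23 pairs), others with -0.018 (over 0.1 in 6 of 69), and 23 of 47 libraries correlated best with their own number, a hint from the data and not the design. With the replicate block, 578 genes were called for diet and 1043 for time, and members as without it. Counts of 12 to 102 reads limit *Mmp9*, *Adamts5* and *Mmp2*.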

Other observations

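The immediate early gene *Fos* differed by the number in the library's label, a pattern noticed in the data and not tested. Its median was 20.9 TPM in the 11 libraries numbered 4 (14.1 to 39.3 TPM), beside 7.20, 5.94 and 6.51 TPM in the 12 libraries each numbered 1, 2 and 3, which reached 17.9, 31.1 and 37.2 TPM, so that the ranges overlapped. In 10 of the 11 groups with 4 libraries the one numbered 4 was the highest for *Fos*, across both diets. For *Adamts1* that was so in 4 of 11 groups, with medians of 3.56 TPM at number 4 and 2.98, 3.04 and 3.27 TPM at the others. *Timp2* was higher in number 4 than in number 1 in each of these groups except PLX5622 ZT10 (105.9 and 111.25 TPM). In control ZT18, for instance, it was at 116.8 TPM in number 4 and 78.2 TPM in number 1. The part of the number in the correlations of *Timp2* with marker lists was not tested.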
